A study of Mus musculus with 24 samples.

Results

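miR-9 and miR-137, microRNAs (miRNAs) best known from neural tissue, were examined in colon tumours and normal colon mucosa of mice. They are 2 of the 566 mouse miRNA probes counted in 24 libraries on the NanoString nCounter system, which counts colour-coded probes bound to single target molecules. The probes, mmu-miR-9 and mmu-miR-137 without their star forms, were taken by name and were chosen by their tumour and normal levels in these same libraries. Those levels are therefore given as a description, with no test of tumour against normal for either probe. The 4 groups were 5 tumours and 6 normal mucosa libraries with APC as their genotype label, and 6 tumours and 7 normal mucosa libraries labelled AOM-DSS. The series' design text names the first model APC;CpC, a name used for mice in which Cre driven by a CDX2 promoter targets the tumour suppressor gene Apc in gut epithelium. The second model receives the carcinogen azoxymethane and the colitis-inducing agent dextran sulphate sodium, so its normal mucosa, as labelled, also comes from treated animals. Age, strain and doses are not given in the labels, nor whether each library is 1 animal, so the spread between libraries may be partly technical. The labels describe fixed, embedded tissue and the design text frozen tissue.

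A miRNA is a short RNA that guides Argonaute proteins to messenger RNAs, mainly through its seed, bases 2 to 8. In neural development miR-9 restrains progenitor genes such as Hes1 and the neuron-restrictive silencer REST, and miR-137 acts on neuronal maturation and on the chromatin regulators Ezh2 and Lsd1. The gut wall has its own nervous system, whose ganglia lie beneath the mucosa and between the muscle layers. Outside the nervous system both miRNAs are also known from tumours, where their genes can be silenced by DNA methylation.

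The deposited probe names carry no arm, and older naming used them for the 5′ arm of miR-9 and the 3′ arm of miR-137. The mature sequences (RefSeq, GRCm38.p6), with the seed in capitals, are shown because the measured molecule of miR-9 cannot be traced to 1 gene.
miR-9: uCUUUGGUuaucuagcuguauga
miR-137: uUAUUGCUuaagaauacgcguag
The seeds CUUUGGU and UAUUGCU differ, and among the 1679 mature names of the table each seed belongs to 1 name. The mature miR-9 is identical at 3 genes, whereas miR-137 has 1. The hairpins, with the measured arm in capitals, were these.
Mir9-1: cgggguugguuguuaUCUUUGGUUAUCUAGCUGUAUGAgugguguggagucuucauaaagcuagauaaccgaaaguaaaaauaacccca
Mir9-2: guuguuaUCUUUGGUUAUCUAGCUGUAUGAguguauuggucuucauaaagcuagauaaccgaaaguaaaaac
Mir9-3: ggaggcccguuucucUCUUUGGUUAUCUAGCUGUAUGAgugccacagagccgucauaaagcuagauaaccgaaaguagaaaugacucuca
Mir137: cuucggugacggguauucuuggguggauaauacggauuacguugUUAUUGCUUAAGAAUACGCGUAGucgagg
Mir9-1 lies at chr3:88215598-88215686 within the long non-coding RNA gene Gm3764, Mir9-2 at chr13:83738814-83738885 within C130071C03Rik, and Mir9-3 at chr7:79505264-79505353 within Mir9-3hg, all on the plus strand. Mir137 lies at chr3:118433857-118433929, also on the plus strand, and the gene table places no other gene around it. A count of miR-9 is the sum over its 3 genes.

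Total mouse miRNA counts ran from 47235 to 329346 per library, with a median of 251264. AOM-DSS normal 7 was the shallowest library, and APC tumour 1 with 134680 counts came next. The file headers place all 11 APC libraries on cartridge 1, 2 tumours and all 7 normal libraries of the AOM-DSS model on cartridge 2, and its other 4 tumours on cartridge 3. Model and cartridge can therefore not be told apart. Epithelial miRNAs (miR-192, miR-194, miR-141 and the miR-200 relatives) were above background in every library, with summed levels from 64878 to 130332 CPM. Background was read from 33 probes that target viral miRNAs (mouse cytomegalovirus and gammaherpesvirus), at their mean plus 2 SD in each library. Their mean level was 101 ± 10.7 CPM in APC tumours and 91.4 ± 12.6 CPM in APC mucosa (SD, n = 5 and 6), and 96.0 ± 11.9 CPM in AOM-DSS tumours and 97.1 ± 12.7 CPM in AOM-DSS mucosa (n = 6 and 7). Exact two-sided permutation tests of this mean level found no difference between these groups past the threshold (p = 0.190 and 0.885, 0.577 and 0.885 adjusted over 4 comparisons). The limit used as background, the mean plus 2 SD, was not itself tested between groups.

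miR-137 was lower in the tumours of both models. In the 5 APC tumours it had raw counts of 10, 28, 52, 37 and 38, against 86, 109 and 118 (lowest, median and highest of 6) in APC normal mucosa. Levels are given in CPM, the count scaled by the library's total of mouse miRNA counts with TMM factors. They averaged 113 ± 45.7 CPM in APC tumours and 510.3 ± 93.1 CPM in APC mucosa (SD, n = 5 and 6). Every APC tumour lay below every APC normal library, as held for 8.7% of the 563 miRNAs tested. In this contrast 21.8% of them passed an adjusted p of 0.05, and nothing is read from either share because the contrast chose the probes. All 5 APC tumours were at or below the viral background, and all 6 normal libraries were at least 2.09 times above it.

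The fitted log2 fold change of miR-137 was -2.15 ± 0.22 (SE), a fitted 4.44-fold lower level. Since the tumours gave only an upper limit, the measured statement is that miR-137 was at least 2.58-fold lower in APC tumours. APC tumour 1, the second shallowest library, had the fewest counts of miR-137 and exceeded 7 of the 33 viral probes. Without it the fitted log2 change was -1.98.

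In AOM-DSS tumours miR-137 had 27, 36 and 46 raw counts (lowest, median and highest of 6), against 32, 128 and 162 in AOM-DSS normal mucosa (of 7). The low end of the normal counts is AOM-DSS normal 7, whose total was also the smallest. Scaled levels were 175 ± 42.9 CPM in AOM-DSS tumours and 529 ± 146 CPM in AOM-DSS mucosa (SD, n = 6 and 7), and every tumour lay below every normal library, as held for 5.33% of the miRNAs tested, of which 17.1% passed in either direction. The fitted log2 fold change was -1.54 ± 0.20, a 2.91-fold lower level. In this model 3 of 6 tumours were above background, and the highest stood at 1.59 times it. The size of the difference thus depends on how background is treated, and with the viral mean subtracted it was -2.41, against -3.68 in the APC model.

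miR-9 was lower in AOM-DSS tumours than in their mucosa, and overlapped with mucosa in the APC model. In APC tumours it had raw counts of 27, 94, 136, 72 and 73, against 37, 46.5 and 56 (lowest, median and highest of 6) in APC normal mucosa. In CPM it averaged 269.9 ± 96.8 in APC tumours and 228 ± 41.6 in APC mucosa (SD, n = 5 and 6). The groups overlapped: 3 tumours lay above every normal library and 1, APC tumour 1, below every one. The fitted log2 fold change was 0.27 ± 0.19, 0.44 ± 0.17 without APC tumour 1 and 0.10 ± 0.20 without APC tumour 3. miR-9 exceeded background in 4 of 5 APC tumours and in 4 of 6 APC normal libraries, so its level in this model stood close to the limit of measurement.

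In AOM-DSS tumours miR-9 had 16, 19.5 and 35 raw counts (lowest, median and highest of 6), against 15, 73 and 102 in AOM-DSS normal mucosa (of 7), where the lowest again belongs to the shallow AOM-DSS normal 7. Its scaled level was 100.2 ± 20.5 CPM in AOM-DSS tumours and 289 ± 62.3 CPM in AOM-DSS mucosa (SD, n = 6 and 7). Every tumour lay below every normal library, as held for 5.33% of the miRNAs tested. Nothing is read from this share because the contrast chose the probe. All 6 tumours were at background and all 7 normal libraries above it, at 1.14 to 2.12 times it. In the tumours miR-9 exceeded between 10 and 28 of the 33 viral probes, whereas in AOM-DSS mucosa it exceeded all 33 in each library. The fitted log2 fold change was -1.46 ± 0.20, and miR-9 was at least 1.59-fold lower in AOM-DSS tumours.

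**Figure D1:**
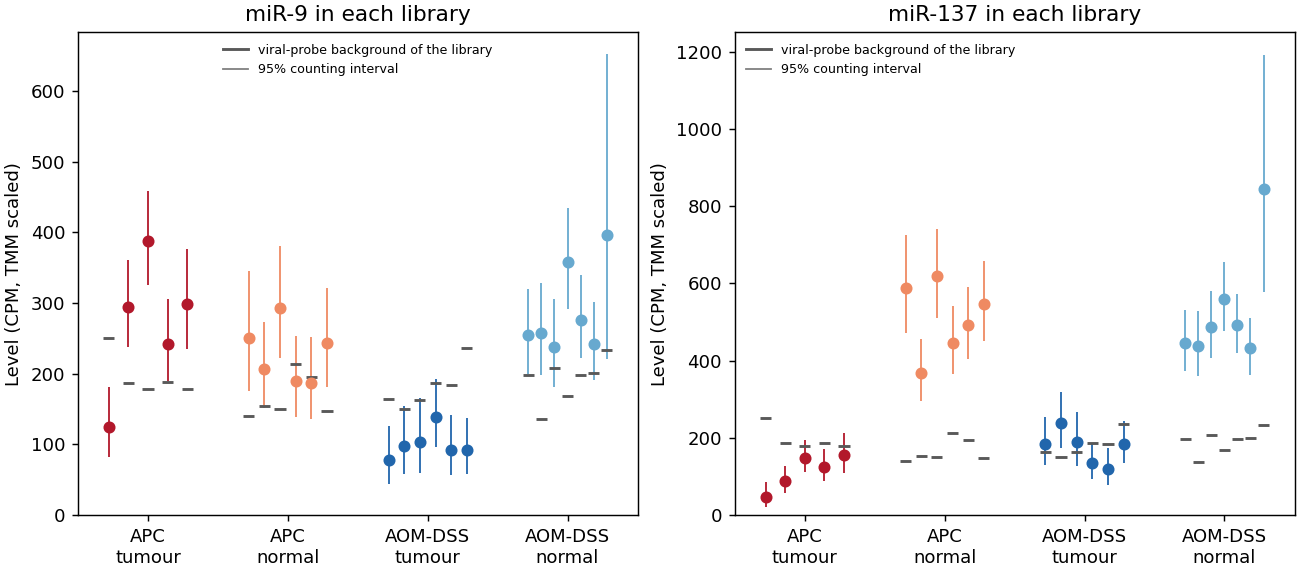
Level of miR-9 (left) and miR-137 (right) in each of the 24 libraries, in CPM after TMM scaling on a linear axis, with the 95% Poisson interval of the raw count as a vertical line and the library's viral-probe background as a short grey bar. miR-137 lies under the grey bar in all 5 APC tumours and in 3 of 6 AOM-DSS tumours, while miR-9 does so in 1 of 5 APC tumours and in all 6 AOM-DSS tumours.

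Only cartridge 2 held both AOM-DSS groups. With cartridge 3 left out, 2 tumours and 7 normal libraries gave a log2 change of -1.70 ± 0.34 for miR-9 and -1.29 ± 0.30 for miR-137. The 2 tumours of cartridge 2 had 77.8 and 97.5 CPM of miR-9, and the 4 of cartridge 3 had 91.8 to 138 CPM. miR-137 had 185 and 238 CPM in the tumours of cartridge 2 and 119 to 188 CPM in those of cartridge 3.

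AOM-DSS was then set against APC within each tissue, in the same edgeR quasi-likelihood fit over 563 miRNAs. The probes were chosen with earlier results of all comparisons known, so the p-values that follow are no independent evidence. In normal mucosa neither miRNA passed the threshold. miR-137 averaged 529 ± 146 CPM in AOM-DSS mucosa and 510.3 ± 93.1 CPM in APC mucosa, a log2 difference of -0.01 ± 0.18 with an approximate 95% interval of -0.37 to 0.35 (adjusted p = 0.998, edgeR). miR-9 averaged 289 ± 62.3 CPM in AOM-DSS mucosa and 228 ± 41.6 CPM in APC mucosa, a log2 difference of 0.29 ± 0.18 with an interval of -0.07 to 0.65 (adjusted p = 0.464). In this comparison 3.37% of the miRNAs passed.

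Among tumours miR-9 was lower in the AOM-DSS model, with 100.2 ± 20.5 CPM in AOM-DSS tumours and 269.9 ± 96.8 CPM in APC tumours (SD, n = 6 and 5). The log2 difference was -1.44 ± 0.21 (adjusted p = 8.54e-06, edgeR's quasi-likelihood test), in a comparison where 8.7% of the miRNAs passed and 3.91% were called lower. The probe was chosen with these tumour levels known, so this p-value is no independent evidence. Model and cartridge cannot be told apart in this comparison. Since the AOM-DSS tumours were all at background, only a bound of 1.41-fold was computed. It is not strict, because APC tumour 1 was also below background and its value was taken as measured. Of the 6 AOM-DSS tumours 5 lay below every APC tumour, and the remaining one, at 138 CPM, lay above only APC tumour 1 at 124 CPM. Without APC tumour 1 the log2 difference was -1.60, and with the viral mean subtracted it was -3.65.

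miR-137 averaged 175 ± 42.9 CPM in AOM-DSS tumours and 113 ± 45.7 CPM in APC tumours, a fitted log2 difference of 0.60 ± 0.23 with an interval of 0.14 to 1.06 (adjusted p = 0.117, edgeR). It is no measured fold, since all APC tumours were at background, and it was 0.11 scaled to the mRNA probes and 1.27 with the viral mean subtracted. For miR-9 the order of the group means was AOM-DSS mucosa, APC tumour, APC mucosa and AOM-DSS tumour, and every AOM-DSS tumour lay below every APC normal library, as held for 5.33% of the miRNAs tested. The first places depend on 1 library, since APC tumours averaged 306 CPM without APC tumour 1, and the first 3 groups overlap. For miR-137 the mucosa groups overlap and their order depends on AOM-DSS normal 7, without which AOM-DSS mucosa averaged 476 CPM. The AOM-DSS tumours came next, all below every APC normal library, and the APC tumours last, overlapping with them.

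The ratio of the raw counts of miR-9 to miR-137 within a library does not depend on how libraries are scaled. In the 5 APC tumours it was 2.70, 3.36, 2.62, 1.95 and 1.92, against 0.381, 0.436 and 0.558 (lowest, median and highest of 6) in APC mucosa. In AOM-DSS tumours it was 0.409, 0.524 and 1.03 (of 6), against 0.469, 0.562 and 0.638 in AOM-DSS mucosa (of 7). Every APC tumour thus had more counts of miR-9 than of miR-137, and of the other 19 libraries 1, an AOM-DSS tumour, did so by a narrow margin with both counts at background. Because the probes differ in efficiency, a ratio above 1 does not say that miR-9 was the more abundant. Only the shift of the ratio between groups can be read, and only as a description, since both probes were chosen by their levels in these libraries. Where either probe stood at background the ratio is drawn towards that of the background counts. miR-137 was at or below background in all 5 APC tumours, so the size of the shift there was not measured. The fitted difference of the tumour effects, AOM-DSS minus APC, was -1.73 ± 0.28 on the log2 scale for miR-9 and 0.61 ± 0.30 for miR-137, given without a test because both tumour contrasts were known when the probes were chosen.

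**Figure D2:**
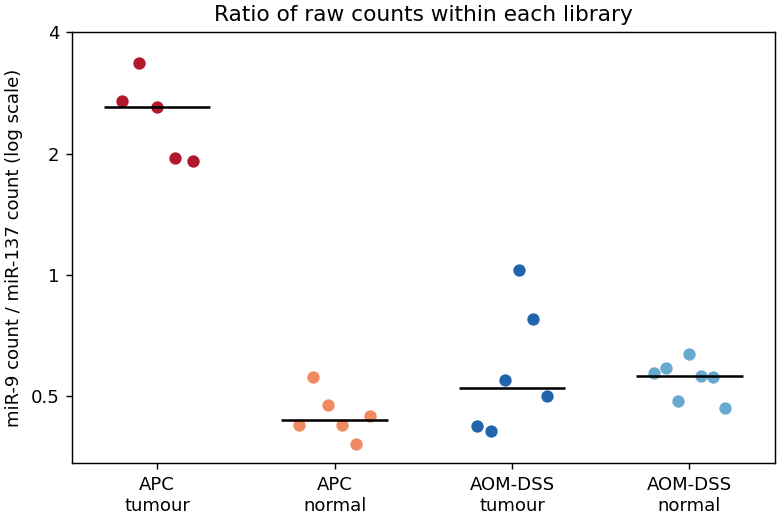
Ratio of the raw count of miR-9 to that of miR-137 in each library, on a log axis, by group, with a black line at the group's median. The 5 APC tumours lie between 1.92 and 3.36, and the other 3 groups lie between 0.381 and 1.03.

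The spread within groups was set against counting error. For miR-9 the coefficient of variation of the scaled level was 35.9% in APC tumours, 18.2% in APC mucosa, 20.4% in AOM-DSS tumours and 21.6% in AOM-DSS mucosa, where counting alone gives 12.9%, 14.8%, 22.2% and 14.5%. In AOM-DSS tumours the variation of miR-9 was therefore no larger than that of counting. For miR-137 it was 40.6%, 18.2%, 24.6% and 27.6% in the same order of groups, with 20.4%, 9.90%, 16.8% and 10.4% from counting. The higher variation in APC tumours rested on APC tumour 1: without it the coefficient was 19.7% for miR-9 and 23.7% for miR-137.

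Other miRNAs known from neural tissue were read from a list of 17 names, 14 of which had a probe and were tested. In APC tumours 6 of the 14 were called lower and 1 higher, beside 12.6% and 9.24% of all 563 miRNAs. In AOM-DSS tumours 4 of 14 were called lower and 0 higher in edgeR's test, beside 8.53% each way. DESeq2 and limma-voom also called 0 higher, and 0 were higher at an unadjusted p of 0.05. The list's median log2 change was -0.27 in APC tumours and -0.39 in AOM-DSS tumours, beside 0.04 and 0.07 over all miRNAs tested. For the difference of the tumour effects 0 of 14 passed in edgeR, beside 6.75% of all miRNAs, while 2 had an unadjusted p under 0.05 and DESeq2 called 1 (limma-voom 0). The counts of lower members moved with scaling, as did those of all miRNAs. Scaled to the mRNA probes, 3 members were lower in APC tumours beside 44 of 563 miRNAs, and 10 in AOM-DSS tumours beside 111 of 563. With the authors' scaled values 3 were lower in APC tumours beside 42 of 566, and 1 in AOM-DSS tumours beside 37 of 566.

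miR-338-3p, known from oligodendrocytes and neurons, had the largest fall of the 14 in both models, with a log2 change of -1.03 ± 0.21 in APC tumours (SE, adjusted p = 0.000170, edgeR) and -0.68 ± 0.19 in AOM-DSS tumours (adjusted p = 0.0105). It averaged 165 ± 47.1 CPM in APC tumours and 336 ± 53.5 CPM in APC mucosa, and 199.8 ± 50.0 CPM in AOM-DSS tumours and 349.98 ± 152 CPM in AOM-DSS mucosa. The lowest count of miR-338-3p in AOM-DSS mucosa, 26, came from the shallow AOM-DSS normal 7. In CPM that count is high rather than low, since 32 counts of miR-137 in the same library were 844 CPM. This library therefore raised the mucosa mean and SD of miR-338-3p and may have enlarged its fitted fall in AOM-DSS tumours. The lead of miR-338-3p over miR-129-3p in AOM-DSS tumours (-0.68 against -0.65) was smaller than either SE. The change of miR-338-3p without AOM-DSS normal 7 was not examined. miR-218, a miRNA of motor neurons, had a fitted log2 change of -0.84 ± 0.17 in APC tumours (adjusted p = 0.000176), where it was at least 1.30-fold lower, and fell by 0.51 ± 0.16 in AOM-DSS tumours (adjusted p = 0.0162). miR-129-3p, expressed in brain, had a fitted log2 change of -0.93 ± 0.17 in APC tumours (adjusted p = 5.72e-05, edgeR), and fell by 0.65 ± 0.16 in AOM-DSS tumours (adjusted p = 0.00269). Its bound in APC tumours, 1.11-fold lower, is not strict. It takes all APC normal libraries as measured, and 5 of 6 were above background. These miRNAs, like the pair above, stood near background in tumours: miR-338-3p exceeded it in 1 of 5 APC and 3 of 6 AOM-DSS tumours, miR-218 in 0 and 3, and miR-129-3p in 0 and 1.

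miR-124, the most abundant miRNA of neurons, did not stand clear of background: it exceeded it in 0 of 5 APC tumours and 3 of 6 APC normal libraries, and in 0 of 6 AOM-DSS tumours and 5 of 7 AOM-DSS normal libraries. It fell by 0.60 ± 0.15 in AOM-DSS tumours (adjusted p = 0.00356, edgeR), and measured -0.26 ± 0.16 in APC tumours (adjusted p = 0.297). Its bound in AOM-DSS tumours, 1.03-fold lower, is not strict, because AOM-DSS normal libraries below background were taken as measured. miR-7a, which neurons and endocrine cells share, fell by 0.71 ± 0.20 in APC tumours (adjusted p = 0.00567, edgeR). It exceeded background in 1 of 5 APC tumours and 6 of 6 APC normal libraries, so the size of the fall is limited by background. miR-138 and miR-153, both known from brain, were called lower in APC tumours (adjusted p = 0.0126 and 0.0346, edgeR), but miR-138 exceeded background in 0 of 5 APC tumours and 1 of 6 APC normal libraries and miR-153 in 0 of 5 and 4 of 6, so no size is given for either. miR-132, induced by neuronal activity and by CREB in many cell types, was above background in all 24 libraries and was the list member called higher, with a log2 change of 0.39 ± 0.13 in APC tumours (adjusted p = 0.0255, edgeR). This call was lost with RLE factors, the mRNA probes, no low-count filter, the 2 groups alone or the replicate block. It was also lost without APC normal 1, 2 or 5. miR-128 measured 0.29 ± 0.17 in APC tumours (adjusted p = 0.246, edgeR) and -0.07 ± 0.16 in AOM-DSS tumours (adjusted p = 0.844). This probe also stood near background, exceeding it in 3 of 5 APC tumours and 3 of 6 APC normal libraries. In the AOM-DSS model it did so in 2 of 6 tumours and 1 of 7 normal libraries.

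**Figure D3:**
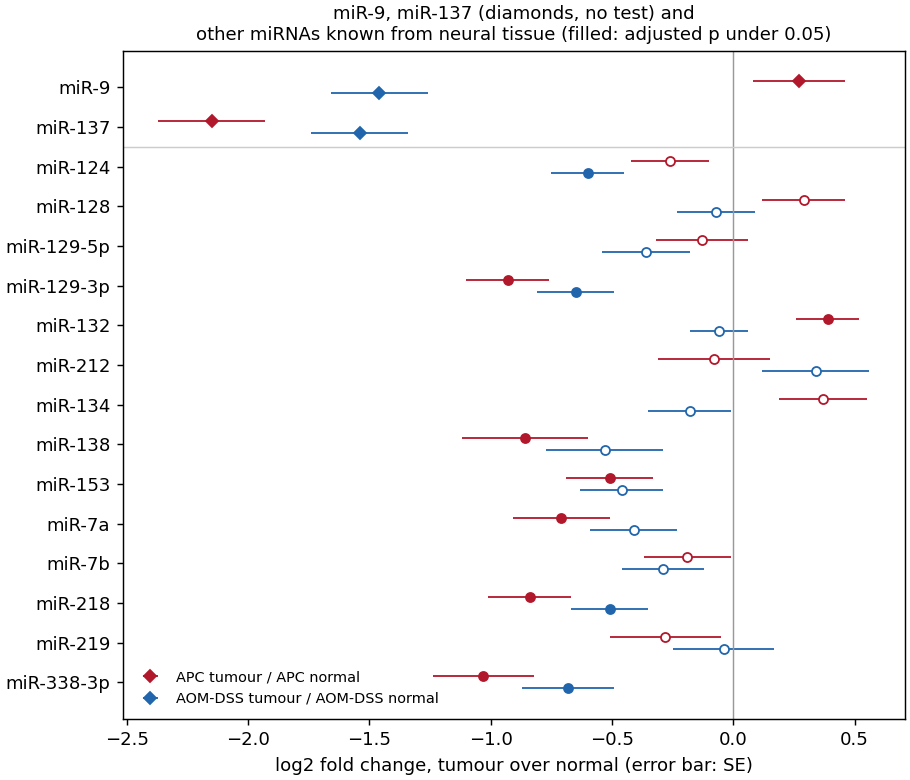
Log2 fold change of tumour over normal, with its SE, for miR-9 and miR-137 (diamonds, no test) and the 14 other measured miRNAs known from neural tissue (circles, filled where the adjusted p was under 0.05), in the APC model (red) and the AOM-DSS model (blue). miR-137 lies at -2.15 and -1.54 and miR-9 at 0.27 and -1.46, while the listed miRNAs lie between -1.03 and 0.39.

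Markers of muscle and stroma moved in the same tumours. Of the 5 listed, miR-1, miR-133a, miR-143 and miR-145 fell in both models and miR-133b did not pass in either. miR-133b exceeded background in 0 of 5 APC tumours and 1 of 6 APC normal libraries. In the AOM-DSS model it did so in 0 of 6 tumours and 0 of 7 normal libraries, so a fall could hardly be seen. Of all miRNAs tested, 12.6% were called lower in APC tumours and 8.53% in AOM-DSS tumours. The summed level of the 5 ranged from 10378 to 24405 CPM in APC tumours and from 172020 to 340266 CPM in APC mucosa. It ranged from 14985 to 48056 CPM in AOM-DSS tumours and from 146715 to 184588 CPM in AOM-DSS mucosa. No marker of the list had a count of 0 in any library, although miR-1 exceeded background in 0 of 5 APC and 2 of 6 AOM-DSS tumours. The part of muscle and stroma in the levels of miR-9 and miR-137 was not tested, and in whole tissue fewer cells of a type and less RNA per cell cannot be told apart. In APC tumours the log2 changes were -3.61 ± 0.28 for miR-143 and -3.68 ± 0.25 for miR-145, beside -2.15 for miR-137 and 0.27 for miR-9. In AOM-DSS tumours they were -2.24 ± 0.24 and -2.26 ± 0.21, beside -1.54 and -1.46. The difference of the tumour effects, AOM-DSS minus APC, passed for 3 of the 5 markers, beside 6.75% of all miRNAs. On the log2 scale it was 0.88 ± 0.28 for miR-1, 1.36 ± 0.34 for miR-143 and 1.41 ± 0.30 for miR-145 (adjusted p = 0.0474, 0.0148 and 0.00380, edgeR).

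The tumour effect on epithelial markers differed between the models for 2 of 7, miR-192 and miR-194, by 1.33 ± 0.21 and 1.33 ± 0.19 (AOM-DSS minus APC, log2, adjusted p = 4.90e-05 and 1.26e-05, edgeR). That count stands beside 6.75% of all miRNAs. In APC tumours 4 of 7 were called lower and 1 higher, beside 12.6% and 9.24% of all miRNAs, the lower ones including miR-194 (-1.70 ± 0.15) and miR-192 (-1.61 ± 0.16), and in AOM-DSS tumours 1 was called lower and 2 higher, beside 8.53% each way. Of 5 leukocyte markers miR-223 rose in both models, by 1.25 ± 0.25 in APC tumours and 0.74 ± 0.22 in AOM-DSS tumours, and miR-142-5p fell in APC tumours by 0.88 ± 0.14. The other 3 passed in neither model, and the shares of all miRNAs called are those given above for the epithelial markers.

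The probes with the profile most like each miRNA were found by the root mean square difference of log2 CPM over the 24 libraries, each profile centred on its own mean, among 223 other probes above background in at least 50% of the libraries of a group. For miR-137 the nearest were miR-365 (0.46), miR-127 of the Dlk1-Dio3 imprinted cluster (0.47), miR-101a (0.48), miR-378 (0.53) and the muscle miRNA miR-1 (0.54), against a median of 1.05 over the candidates. miR-365, the closest, averaged 773 ± 269 CPM in APC tumours and 2300.1 ± 523 CPM in APC mucosa, and 866 ± 128 CPM in AOM-DSS tumours and 2109.9 ± 285 CPM in AOM-DSS mucosa.

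For miR-9 the nearest were miR-195 (0.41), miR-100 (0.43), miR-130a (0.48), miR-199a-5p (0.51) and miR-193b (0.51), against a median of 0.78. Since these probes were chosen for their likeness over the same libraries, their changes are a description. miR-100 measured 0.36 ± 0.16 in APC tumours and -0.67 ± 0.15 in AOM-DSS tumours on the log2 scale, and miR-195 measured -0.35 ± 0.19 and -0.93 ± 0.18. miR-9 and miR-137 differed from each other by 0.94, which placed miR-137 at rank 178 of 223 among the profiles nearest to miR-9 and miR-9 at rank 73 of 223 among those nearest to miR-137. Profiles share library, depth and background, and a small difference also arises between probes that vary little.

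**Figure D4:**
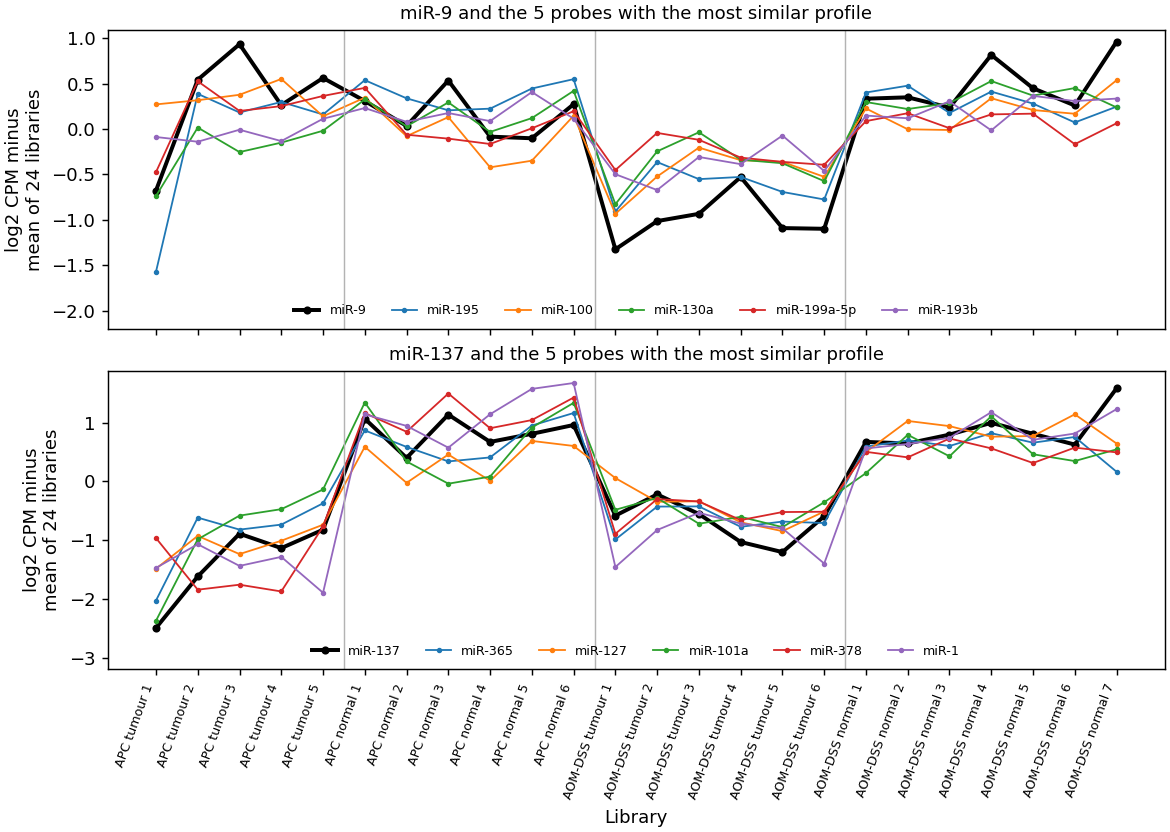
Log2 CPM minus the mean of the 24 libraries for miR-9 (top, black) and miR-137 (bottom, black) and for the 5 probes with the most similar profile (colours), by library; vertical lines part the groups, and lines only join the points. miR-9 is below its mean in all 6 AOM-DSS tumours and in 1 of 5 APC tumours, and also in 2 of 6 APC normal libraries. miR-137 is below its mean in all 11 tumours and in no normal library.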

How the data were processed

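Raw counts per probe from 3 NanoString cartridges were deposited by the authors, per the file headers, for 566 mouse miRNA probes, 33 viral probes and 4 mRNA probes. A second deposited table holds a scaled signal, which equals the raw count times 1 factor per sample (tolerance 0.001 on the ratio), with counts of 0 set to 1. How the factor was derived, and with which software, is not given in the sources used here. Each raw column's header gives its group, 6 columns matched 1 sample by name, and the numbers of the other libraries come from their match to the scaled table.

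The main test was edgeR 4.0.16 under R 4.3.3. Its filterByExpr (min.count 10, min.total.count 15) kept 563 miRNAs, TMM factors scaled the libraries, and 1 robust quasi-likelihood model covered the 4 groups, with p-values adjusted after Benjamini and Hochberg over the 563 and a threshold of 0.05. The fit was tested on simulated data. Standard errors are the absolute log2 fold change over the square root of F. A miRNA at or below background (viral mean plus 2 SD) in every library of a group has only a bound there, computed on log2 CPM means with the background in place of any smaller value of the dim group. Values of the other group were taken as measured, also where below background, and the bound makes no allowance for sampling error. Poisson intervals cover counting error only. DESeq2 1.42.0 and limma 3.58.1 served in alternatives. Named were miR-9, miR-137, neural-list members above background in at least 50% of the libraries of a group or called in a tumour contrast, the 5 nearest profiles of each miRNA, and muscle and stroma markers. The members, lists and rules were chosen with earlier results of these data known. The sequences and positions are from RefSeq, GRCm38.p6. No pair of libraries within a group agreed within sampling noise (lowest chi-square per degree of freedom 3.29 over 61 pairs).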

Additional observations from a re-analysis of the deposited data

Results flagged for a closer look

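The level of miR-137 in AOM-DSS normal 7, 844 CPM, stood far above the other 6 AOM-DSS normal libraries, the highest of which had 561 CPM. It rests on 32 counts in the shallowest library, with a 95% Poisson interval of 578 to 1192 CPM. Its gap to the next library exceeded Dixon's 95% critical value, as in 1 of 12 groups of values examined (the levels of both miRNAs and their ratio, in 4 groups each), and chance gives about 1 in 20 groups. Without this library the log2 change of miR-137 in AOM-DSS tumours was -1.46. Whether its depth bears on the level was not tested.

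The tumour effect of miR-9 differed between the models by -1.73 ± 0.28 on the log2 scale (AOM-DSS minus APC, SE), from log2 changes of -1.46 in AOM-DSS tumours and 0.27 in APC tumours. Both contrasts were known when the probe was chosen, so no p-value is given. Model and cartridge cannot be told apart here.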

How the results depend on the processing

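Under no alternative did miR-9 or miR-137 change the sign of a tumour effect. Leaving out 1 library at a time gave log2 changes of 0.10 to 0.44 (miR-9) and -2.28 to -1.98 (miR-137) in APC tumours, and of -1.59 to -1.38 and -1.65 to -1.45 in AOM-DSS tumours; for AOM-DSS against APC tumours -1.60 to -1.26 and 0.43 to 0.73, for normal mucosa 0.21 to 0.38 and -0.09 to 0.07, and for the difference of tumour effects -1.90 to -1.56 and 0.44 to 0.74. With the viral mean subtracted, miR-137 stood at -3.68 in APC tumours, miR-9 and miR-137 at -3.69 and -2.41 in AOM-DSS tumours, their differences of tumour effects at -4.09 and 1.28, and AOM-DSS against APC tumours at -3.65 and 1.27. Scaled to the mRNA probes, the AOM-DSS tumour changes were -1.98 and -2.06 the differences of effects -2.38 and 0.02, and AOM-DSS against APC tumours -1.98 and 0.11, where the median of all miRNAs in AOM-DSS tumours moved to -0.40. The near-zero difference of miR-137 in normal mucosa turned to 0.09 (mRNA probes), 0.03 (no low-count filter) and 0.14 (authors' values).

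Libraries above background rose to 6 (miR-137, AOM-DSS tumours), 3 (miR-137, APC tumours) and 3 (miR-9, AOM-DSS tumours) with the median viral probe as the limit. The 123 calls in APC tumours became 74 with the mRNA probes, the 96 in AOM-DSS tumours 58 with cartridges 1 and 2 only (fewer samples), the 19 in normal mucosa 4 with the mRNA probes, and the 49 between tumours 32 with the authors' values and 10 with cartridges 1 and 2. Leaving out a library gave 109 to 132, 78 to 100, 8 to 17 and 28 to 52 calls. The share of calls higher was 42.3% in APC and 50.0% in AOM-DSS tumours, but 66.7% in APC tumours with the authors' values and 8.3% in AOM-DSS tumours with the mRNA probes; in normal mucosa it was 47.4%, but 75.0% and 82.4% with the mRNA probes and authors' values, and between tumours 55.1%, but 3.1% and 43.8%. In APC tumours the neural list had 3 lower with the mRNA probes and 3 with the authors' values, and its 1 higher became 0 with RLE factors, the mRNA probes, no filter, the 2 groups alone or the replicate block, and 2 with the authors' values; leaving out a library gave 5 to 6 lower and 0 to 1 higher. In AOM-DSS tumours 10 were lower with the mRNA probes and 1 with the authors' values, and 3 to 6 lower and 0 higher without single libraries. Means without the shallow APC tumour 1 or AOM-DSS normal 7 were added after seeing the data. The cause of these shifts was not tested. With the replicate number as a block, miR-9 and miR-137 stood at 0.18 and -2.23 in APC tumours and -1.56 and -1.59 in AOM-DSS tumours; same-numbered libraries correlated from -0.33 to 0.119 over 11 pairs, so the numbers were not taken to pair the samples. Low counts near background limit both miRNAs in tumours.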
